A study of Arabidopsis thaliana with 9 samples.

Results

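The plastid chromosome of Arabidopsis thaliana was followed through 69 of its genes in a cell suspension culture held at 3 light levels. A gene was included when a probe set of the Affymetrix ATH1 array listed that gene alone and the gene table placed it on the plastid chromosome. Each of the 69 genes had 1 such probe set, out of 22810 probe sets on the array, of which 13513 listed a single gene and together covered 13356 genes. The gene table holds 129 plastid entries, of which 37 encode transfer RNAs, 7 ribosomal RNAs and 85 proteins, and the protein entries carry 78 distinct symbols. Among the symbols that were not included, 7 occur only on the 8 probe sets that list 2 plastid entries. By symbol prefix the members were 15 genes of photosystem II (psb), 5 of photosystem I (psa), 7 of the cytochromes (pet and ccsA), 6 of the ATP synthase (atp), 10 of the NDH complex (ndh), 4 of the RNA polymerase (rpo), 15 of the ribosome (rps and rpl) and 7 others. The control cells were kept at the growth light of 50 microE/m2/s, the dark cells spent 1 h without light, and a 30 min exposure to 1800 microE/m2/s made the high light group. Each group had 3 arrays of total RNA from biological replicates, numbered 1 to 3 in the labels. No genotype, ecotype or transgene is given, and the labels do not say whether the replicates were separate cultures. The p-values therefore cover the spread among these samples alone.

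The plastid genome encodes the core subunits of the photosynthetic membrane complexes, part of the plastid ribosome and the catalytic core of a bacterial-type RNA polymerase. The nucleus supplies the remaining subunits, the sigma factors that direct this polymerase to promoters, and a phage-type polymerase that also transcribes plastid genes. Most plastid genes are cotranscribed with their neighbours, and their transcripts are cut and trimmed afterwards, so the amounts of RNA from 1 transcription unit can differ. Labelling with the kit named in the labels starts from poly(A) tails, and in plastids such tails are short-lived marks of RNA decay. How this bears on the plastid signals was not tested. In RNA from whole cells, fewer plastids, fewer genome copies and less RNA per copy cannot be told apart.

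Values are log2 signals, in which a difference of 1 is a 2-fold change. Of the 69 members, 60 had a mean above the highest array median (5.67) and 2, atpI and ndhF, had a mean below the lowest lower quartile of any array (4.05). Signals were not tested against background. Of the markers of green cells, 1 of 9 had a named probe set. This was RCA, the Rubisco activase gene, at 10.997 ± 0.16 in control, 10.77 ± 0.05 in the dark and 10.83 ± 0.17 in high light (SD, n = 3). The 6 markers of dividing cells and the 3 of root cells had none and were not analysed here. A named probe set is a probe set that the annotation used here lists with that gene alone. This annotation lists 1 gene for 13513 of 22810 probe sets and several genes for 503. A gene without a named probe set can therefore still have probes on the array.

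No member passed the test in any of the 3 comparisons when limma was fitted over all 22746 probe sets that are no array controls and p-values were adjusted by Benjamini-Hochberg. The shares of all probe sets called at an adjusted p under 0.05 were 0.501% for high light against control, 0% for dark against control and 0.897% for high light against dark. The smallest adjusted p of a member was that of petG in both high light comparisons, 0.121 against control and 0.309 against dark, and it was 1 for dark against control. At an unadjusted p under 0.05, 5 members were lower and 0 higher in high light than in control, against 4.92% of all probe sets lower and 3.87% higher. In the dark 2 were lower and 0 higher (background 1.77% and 0.994%), while 1 was lower and 0 higher when high light was set against dark (background 3.52% and 4.48%). These counts are near those backgrounds.

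The size of change that the arrays could have shown differed between members. The SE of a log2 change ran from 0.07 to 0.55 over the members, with a median of 0.26, against a median of 0.12 over all probe sets. In high light against control the 95% interval lay wholly within a 2-fold change in either direction for 51 of 69 members, and for 93.8% of all probe sets. The corresponding counts were 50 of 69 in dark against control (96.1% of all probe sets) and 46 of 69 in high light against dark (93.8%). For the other members the interval included a 2-fold change. These values leave out the replicate number. A further fit took that number as a block over all 9 arrays, so the dark arrays were blocked by number too and entered its SE. With the block, the SE of high light against control ran from 0.07 to 0.27 with a median of 0.14 (0.10 over all probe sets). In that fit 66 of 69 intervals lay within a 2-fold change, against 95.8% of all probe sets. Against control, the log2 changes ran from -0.86 to 0.32 in high light and from -0.57 to 0.28 in the dark. Between high light and dark they ran from -0.69 to 0.58.

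**Figure D1:**
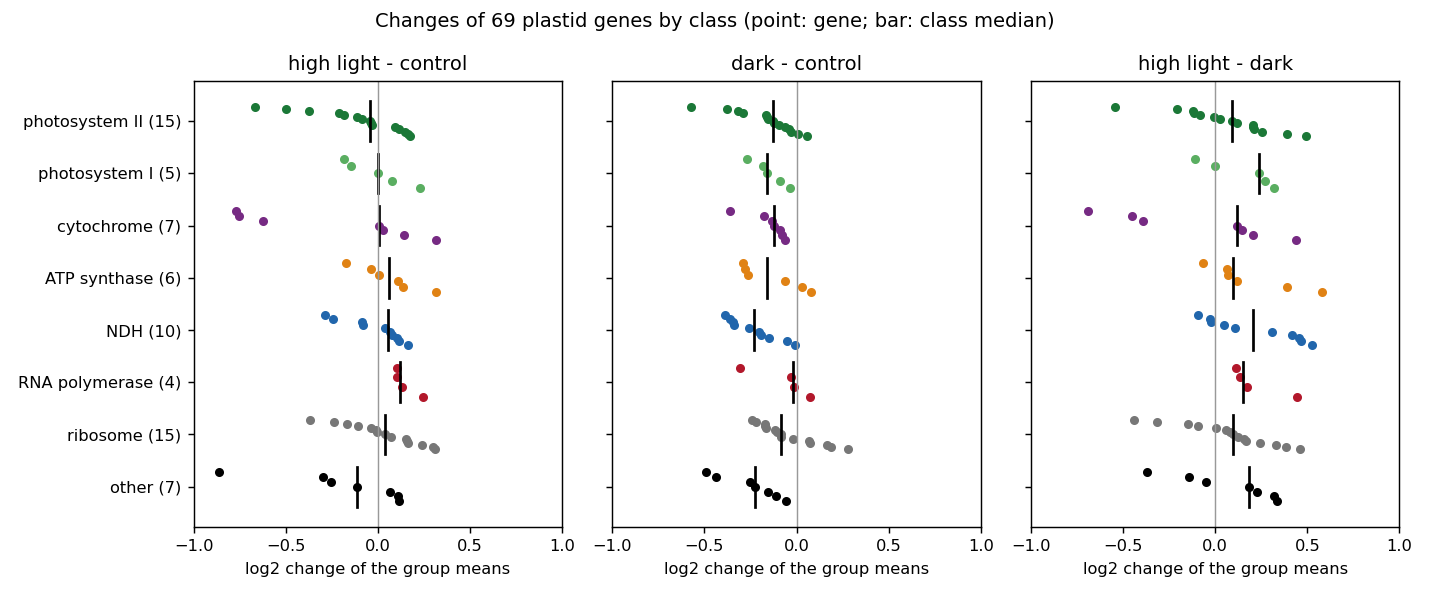
Log2 change of the group means for each of the 69 plastid genes (points) by class, in the 3 comparisons, with the class median as a bar and the number of genes in parentheses. The cytochrome genes split in high light against control into 3 genes between -0.77 and -0.62 and 4 between 0.01 and 0.32. The dark changes of the NDH, cytochrome, photosystem I and other genes all lie below 0.

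Photosystem II splits water, and its core turns over quickly in strong light. Its 15 measured genes had a median log2 change of -0.04 in high light and -0.13 in the dark, both against control, where all probe sets had -0.03 and 0.00. Leaving out 1 array moved the high light median from -0.14 (high light replicate 2 left out) to 0.04 (high light replicate 1 left out), and the dark median between -0.20 and -0.04 (without dark replicate 2 or 3, respectively). In each comparison 0 of the 15 passed. The gene psbA, for the D1 reaction centre protein that light damages and that is replaced throughout the day, had signals of 10.78, 10.37 and 9.89 in control, 10.79, 10.43 and 9.42 in the dark and 10.74, 10.23 and 9.42 in high light. In each group replicate 1 was the highest array and replicate 3 the lowest, and the groups overlapped. The log2 change of psbA was -0.21 (SE 0.43, adjusted p = 0.949) in high light against control, with a 95% interval of -1.18 to 0.76, and -0.13 in the dark. With the block the high light interval was -0.48 to 0.05.

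The gene psbD, for the D2 protein that pairs with D1, has a promoter known to respond to blue light. It had signals of 8.48, 8.58 and 7.19 in control, 8.29, 8.27 and 7.32 in the dark and 7.73, 8.0 and 6.53 in high light. Replicate 3 was the lowest array in each group, and the groups overlapped. The log2 change in high light against control was -0.67 (SE 0.49, adjusted p = 0.814), with a 95% interval of -1.78 to 0.45. High light and control arrays of the same number deviated together over all probe sets, and the differences within the numbers 1 to 3 were -0.75, -0.58 and -0.66 for psbD, corresponding to a mean of 63.1% of control. With the replicate number as a block psbD was lower in high light (SE 0.11, adjusted p = 0.0374), the 1 member of 69 called in that fit, where 1.33% of all probe sets were called and 0.312% were called lower. Without number 1, 2 or 3 psbD was not called, with a blocked adjusted p of 0.172, 0.139 or 0.154, at log2 changes of -0.62, -0.71 and -0.67. These fits also had fewer arrays and residual degrees of freedom. They therefore cannot tell whether the call depends on any 1 number. In the dark the log2 change of psbD was -0.12 (SE 0.49).

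The next measured genes along the chromosome are psbC, for the antenna protein CP43, and psbZ, for a small subunit, which are cotranscribed with psbD. The signals of psbZ were 10.12, 9.94 and 10.14 in control, 9.38, 9.73 and 9.95 in the dark and 9.74, 9.36 and 9.61 in high light. All 3 high light arrays lay below all 3 control arrays, while the dark arrays overlapped both groups. Its log2 change was -0.50 (SE 0.16, adjusted p = 0.351) in high light and -0.38 (SE 0.16, adjusted p = 1) in the dark, each against control, at unadjusted p of 0.0118 and 0.0387. In psbC the changes were -0.37 (SE 0.36) and -0.16 (SE 0.36), so the 3 neighbours had values below 0 in both comparisons, of which 0 passed without the block. On the other side of psbD, psbM had 0.16 (SE 0.28) in high light and -0.04 (SE 0.28) in the dark.

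The remaining photosystem II genes had log2 changes from -0.18 to 0.18 in high light against control. Among them psbB, for the antenna protein CP47, had -0.04 (SE 0.30) and psbE, for a subunit of cytochrome b559, -0.04 (SE 0.25). The lowest change in the dark was that of psbK, a small subunit, with signals of 9.54, 10.12 and 10.99 in control, 9.28, 9.77 and 9.88 in the dark and 9.52, 9.70 and 10.89 in high light. The dark array of number 3 lay below the control and high light arrays of that number. The psbK change was -0.57 (SE 0.43, adjusted p = 1) in the dark and -0.18 in high light. The highest change in high light was that of psbI, also a small subunit, at 0.18 (SE 0.55). The small subunit genes psbL and psbT had 0.09 (SE 0.16) and 0.15 (SE 0.16) in high light, and psbT had the highest dark change of the class, 0.06.

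Photosystem I passes electrons to ferredoxin. Its 5 measured genes had log2 changes from -0.18 to 0.23 in high light and from -0.27 to -0.03 in the dark, and 0 passed. The genes psaA and psaB encode its paired reaction centre proteins and are cotranscribed. The signals of psaA were 8.65, 8.93 and 8.35 in control, 8.69, 9.0 and 7.69 in the dark and 7.95, 9.21 and 8.22 in high light. The signals of psaB were 10.11, 10.82 and 11.62 in control, 10.12, 10.78 and 11.38 in the dark and 10.57, 11.31 and 11.36 in high light. The groups overlapped for both genes. In high light against control the changes were -0.18 (SE 0.40) for psaA and 0.23 (SE 0.43) for psaB. Their replicate numbers ran differently, since psaB was lowest on the arrays numbered 1 in every group and psaA was highest on those numbered 2. The gene psaI, for a small subunit, had the lowest dark change, -0.27 (SE 0.23), and psaJ, for another small subunit, had the highest, -0.03 (SE 0.10), with -0.15 in high light.

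The cytochrome b6f complex links both photosystems. Of the 7 measured cytochrome genes, petG, petN and petD had log2 changes between -0.77 and -0.62 in high light, and the other 4 had values between 0.01 and 0.32. The gene petG, for a small subunit that the complex needs for assembly in tobacco, had signals of 7.15, 6.71 and 6.89 in control, 6.85, 6.86 and 6.51 in the dark and 6.25, 6.36 and 6.26 in high light. All 3 high light arrays lay below all 3 control and all 3 dark arrays. Its log2 change was -0.62 (SE 0.13, adjusted p = 0.121) against control, 64.8% of the control level, and -0.45 (SE 0.13, adjusted p = 0.309) against dark. Arrays did not overlap in this direction for 5 members against control (background 6.85%) and for 2 against dark (background 5.28%). In the opposite direction 0 members had arrays that did not overlap, against control (background 4.32%) or against dark (background 4.99%).

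The gene petN, for another small subunit, had signals of 6.84, 6.66 and 6.15 in control, 6.80, 6.09 and 5.67 in the dark and 5.87, 5.76 and 5.76 in high light. The high light arrays lay below the control arrays, and dark replicate 3 lay below every high light array. Its log2 change was -0.75 (SE 0.27, adjusted p = 0.449) against control and -0.39 (SE 0.27) against dark. The gene petD, for subunit IV, had signals of 6.79, 5.95 and 5.94 in control, 6.66, 5.74 and 6.05 in the dark and 6.21, 5.30 and 4.87 in high light. The array numbered 1 was the highest of each group, and high light replicate 1 lay above control replicates 2 and 3. The petD change was -0.77 (SE 0.38, adjusted p = 0.657), and the differences within the replicate numbers were -0.58, -0.65 and -1.08. Under the block for the replicate number the adjusted p was 0.0611 for petD, 0.0704 for petG and 0.11 for petN.

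The other cytochrome members had changes near 0 or above it. The gene petB, for cytochrome b6, which is cotranscribed with petD, had signals of 11.56, 11.50 and 11.61 in control, 11.48, 11.34 and 11.45 in the dark and 11.35, 11.65 and 11.69 in high light. Its log2 change was 0.01 (95% interval -0.22 to 0.24) in high light against control, and its dark arrays all lay below its control arrays (log2 change -0.13, SE 0.10). It was the 1 member without overlap between dark and control, where 3.45% of all probe sets were lower and 2.89% higher without overlap. The gene petL, the neighbour of petG, had 0.03 (95% interval -0.81 to 0.86), petA, for cytochrome f, had 0.14 (SE 0.19), and ccsA, for a protein of cytochrome c assembly, had 0.32 (SE 0.42). The differences between neighbouring genes were not tested.

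**Figure D2:**
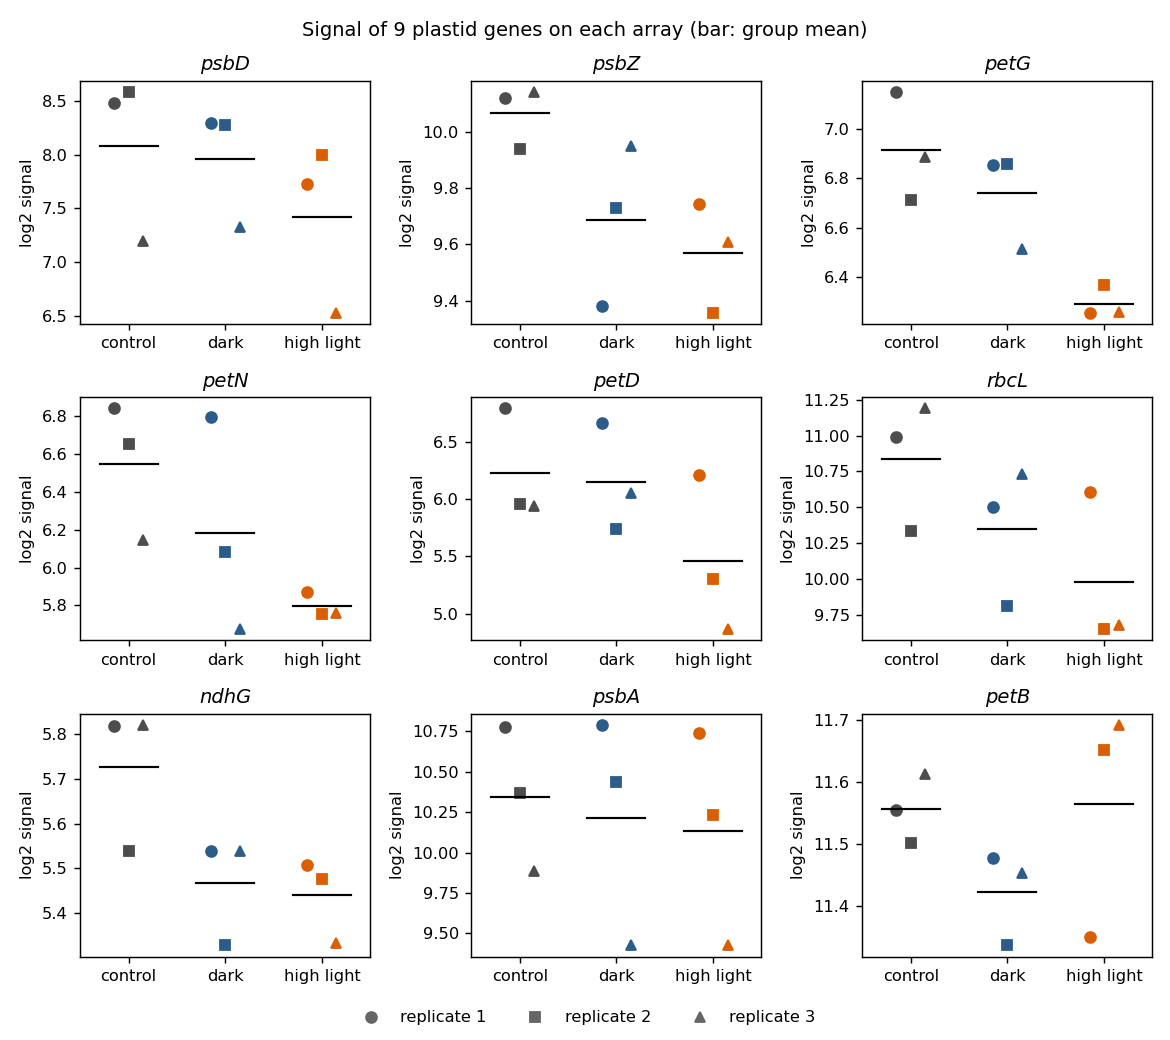
Log2 signal of 9 plastid genes on each of the 9 arrays, coloured by group (grey control, blue dark, orange high light), with the replicate number as the symbol and the group mean as a bar; the vertical axes differ. The high light arrays of petG, petN, psbZ and ndhG lie below their control arrays, those of psbD lie below control within each replicate number, and those of psbA and petB overlap with control.

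The ATP synthase makes ATP from the proton gradient across the thylakoid membrane. Its 6 measured genes had a median log2 change of 0.06 in high light and -0.16 in the dark against control, and 0 passed. Both medians changed sign with 1 array left out, running from -0.09 (without control replicate 1) to 0.23 (without high light replicate 1) in high light and from -0.26 (without control replicate 1) to 0.03 (without dark replicate 1) in the dark. The gene atpB, for the beta subunit, had signals of 12.29, 12.72 and 12.76 in control, 12.36, 12.55 and 12.67 in the dark and 12.31, 12.71 and 12.77 in high light. The groups overlapped, and the 95% interval of its change in high light was -0.37 to 0.38. The gene atpE, for the epsilon subunit, is cotranscribed with atpB and had 0.14 (SE 0.25). The gene atpA, for the alpha subunit, had the highest changes of the class in high light, with signals of 9.91, 10.68 and 11.43 in control, 9.74, 10.52 and 10.97 in the dark and 10.16, 11.33 and 11.47 in high light. Replicate 1 was the lowest array and replicate 3 the highest in each group. Its change was 0.32 (SE 0.48, adjusted p = 0.927) against control and 0.58 (SE 0.48, adjusted p = 0.835) against dark. In atpH, for the ring subunit, the changes were -0.17 (SE 0.30) in high light and -0.29 (SE 0.30) in the dark. The gene atpI was near the floor of the scale, with the same signal of 3.86 on all 3 control arrays.

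The gene rbcL, for the large subunit of the carbon dioxide fixing enzyme Rubisco, lies beside atpB and is read in the opposite direction. Its signals were 10.99, 10.33 and 11.19 in control, 10.50, 9.81 and 10.73 in the dark and 10.61, 9.65 and 9.68 in high light. High light replicates 2 and 3 lay below every other array, and high light replicate 1 lay above control replicate 2. The log2 change was -0.86 (SE 0.34, adjusted p = 0.517) in high light, the lowest of the 69 members, with a 95% interval of -1.64 to -0.08 and an unadjusted p of 0.0345. The differences within the replicate numbers were -0.38, -0.69 and -1.51. In the dark the change was -0.49 (SE 0.34, adjusted p = 1).

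The NDH complex carries electrons around photosystem I. All 10 of its measured genes had a log2 change below 0 in the dark against control, from -0.39 to -0.01 with a median of -0.23. This was not particular to NDH, since all 7 cytochrome genes, all 5 of photosystem I and all 7 others also lay below 0. Over all classes 59 of 69 members did, and 51.5% of all probe sets. Of the NDH genes 0 passed, 1 of 10 was lower at an unadjusted p under 0.05, and arrays overlapped for all 10. In high light against control 4 of 10 lay below 0, with a median of 0.05, which ran from -0.12 (without control replicate 1) to 0.14 (without control replicate 3) with 1 array left out. A further probe set lists 2 entries that both carry the symbol ndhB, for a membrane subunit, and is therefore no member. Its log2 change in high light was -1.89 (SE 0.49, adjusted p = 0.225), and with the block it was called lower (adjusted p = 0.00753). The median of the NDH genes relative to the control means was -0.57, -0.13 and -0.04 on dark replicates 1, 2 and 3, and -0.23, -0.10 and 0.29 on the control arrays. Dark replicate 1 was thus the lowest array of the 9 for this class. Without dark replicate 1 the count below 0 was 6 of 10 with a median of -0.07, and without control replicate 3 it was 6 of 10 with a median of -0.05.

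The gene ndhG, for a membrane subunit, had signals of 5.82, 5.54 and 5.82 in control, 5.54, 5.33 and 5.54 in the dark and 5.51, 5.48 and 5.33 in high light. The control array numbered 2 was level with the dark arrays 1 and 3, and all high light arrays lay below the control arrays. Its changes were -0.29 (SE 0.11, adjusted p = 0.458) in high light and -0.26 (SE 0.11, adjusted p = 1) in the dark, at unadjusted p of 0.0249 and 0.0383. The gene ndhA, for another membrane subunit, had signals of 8.44, 8.52 and 8.82 in control, 7.85, 8.54 and 8.38 in the dark and 8.16, 8.90 and 9.06 in high light. The dark arrays overlapped the control arrays, and the change was -0.34 (SE 0.26, adjusted p = 1) in the dark and 0.12 in high light. The lowest dark changes of the class were those of ndhK at -0.39 (SE 0.32) and ndhD at -0.36 (SE 0.45). The highest was that of ndhC at -0.01 (SE 0.08), and ndhE and ndhI, which flank ndhG, had -0.15 (SE 0.31) and -0.20 (SE 0.23). The gene ndhF was near the floor of the scale at 3.80 ± 0.04 in control.

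The RNA polymerase genes rpoA, rpoB, rpoC1 and rpoC2 encode the alpha, beta, beta prime and beta double prime subunits of the bacterial-type enzyme. All 4 had changes above 0 in high light against control, from 0.10 to 0.25, and 0 passed. Without control replicate 1, and likewise without high light replicate 3, 2 of 4 had changes above 0. The signals of rpoA were 8.40, 9.10 and 9.06 in control, 8.61, 9.17 and 9.01 in the dark and 8.70, 9.26 and 9.34 in high light, with a change of 0.25 (SE 0.24, adjusted p = 0.872). The signals of rpoC1 were 8.39, 9.08 and 10.07 in control, 7.99, 9.22 and 9.41 in the dark and 8.69, 9.34 and 9.92 in high light, with changes of 0.13 (SE 0.52) in high light and -0.31 (SE 0.52) in the dark. The groups overlapped for both genes, and rpoC1 spanned more between replicate numbers than between groups. Its cotranscribed neighbours rpoB and rpoC2 had 0.11 (SE 0.10) and 0.10 (SE 0.31) in high light. The signals of rpoB were low, at 4.17, 4.21 and 4.21 in control and 4.21, 4.49 and 4.21 in high light. The lower quartiles of the arrays ran from 4.05 to 4.12.

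The 15 ribosomal protein genes had a median log2 change of 0.04 in high light and -0.09 in the dark, and 0 passed. The sign turned here too, with a range from -0.13 (high light replicate 3 left out) to 0.22 (high light replicate 1 left out) in high light and from -0.19 (without dark replicate 3) to 0.12 (without dark replicate 1) in the dark. The gene rps14, which is cotranscribed with psaA and psaB, had signals of 5.10, 5.08 and 5.22 in control, 4.88, 5.01 and 5.72 in the dark and 4.88, 4.61 and 4.81 in high light. All 3 high light arrays lay below all control arrays, high light replicate 1 was level with dark replicate 1 at this rounding, and its change was -0.37 (SE 0.20, adjusted p = 0.685) against control and -0.44 (SE 0.20, adjusted p = 0.64) against dark. The highest change in high light was that of rpl16 at 0.31 (SE 0.25), and the highest in the dark was that of rps15 at 0.28 (SE 0.38). The gene rpl32 had 0.30 (SE 0.49) in high light. The genes rps2 and rps16 had 0.24 (SE 0.29) and -0.24 (SE 0.17) in high light.

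The remaining members besides rbcL had changes between -0.30 and 0.11 in high light. The gene accD, for a subunit of the acetyl-CoA carboxylase of fatty acid synthesis, had signals of 8.07, 7.97 and 7.84 in control, 7.80, 7.90 and 6.86 in the dark and 7.55, 7.98 and 7.58 in high light. Dark replicate 3 was the lowest array, and the change was -0.44 (SE 0.26, adjusted p = 1) in the dark and -0.25 in high light. The gene clpP, for a protease subunit, had 0.11 (SE 0.22) in high light, and matK, for a splicing factor, had 0.11 (SE 0.28). The genes ycf3 and ycf4, for assembly factors of photosystem I, had -0.11 (SE 0.14) and -0.30 (SE 0.49), and cemA, for an envelope membrane protein, had 0.07 (SE 0.29).

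**Figure D3:**
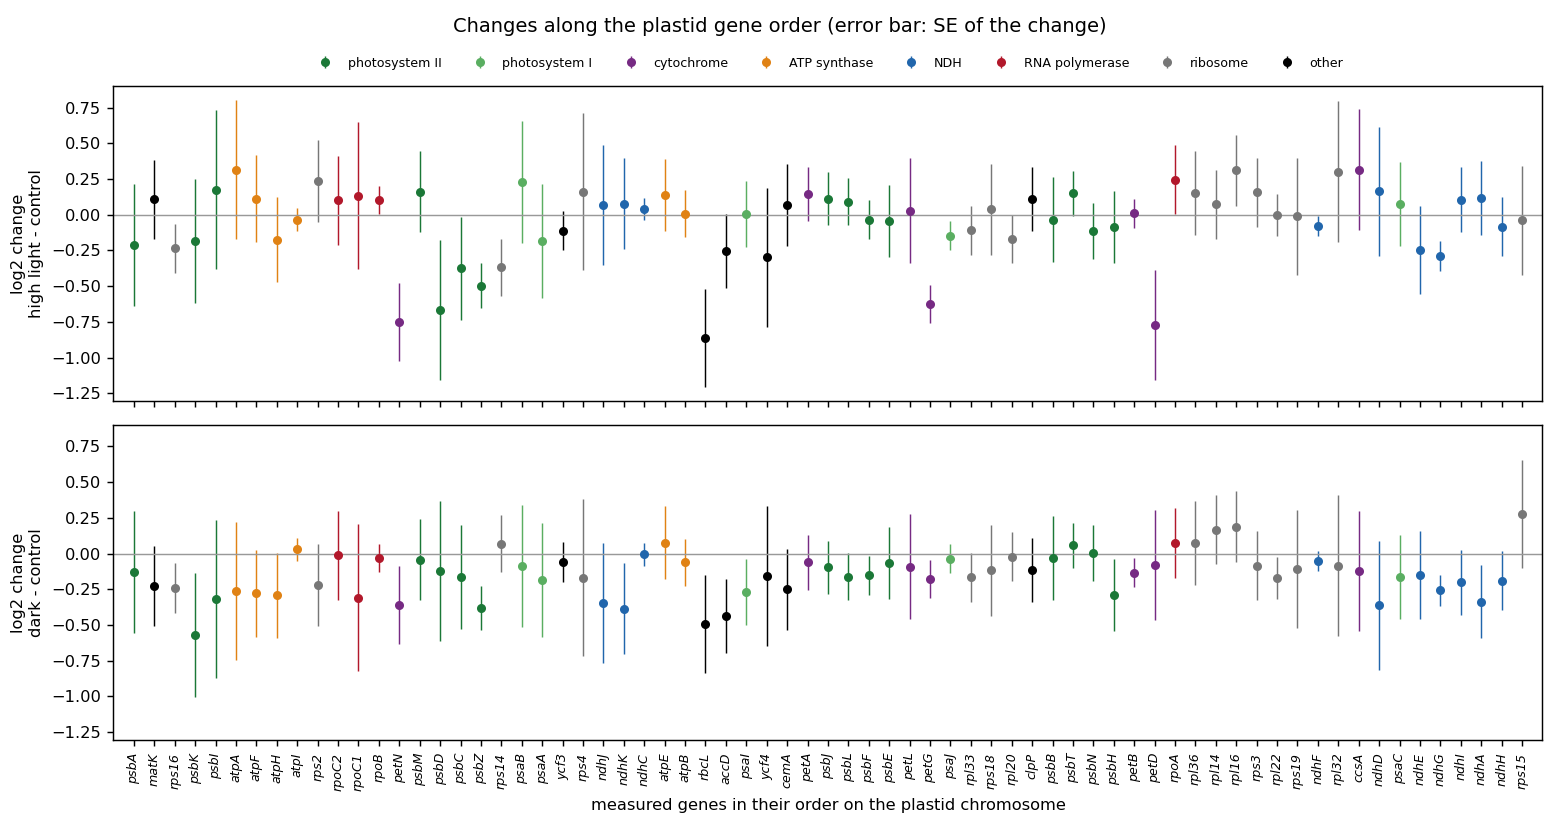
Log2 change in high light (top) and in the dark (bottom) against control for the 69 measured genes in the order of the plastid chromosome, with the SE of the change as a bar and the class as the colour. In high light petG (-0.62) stands beside petL (0.03) and petD (-0.77) beside petB (0.01). The consecutive genes psbD, psbC, psbZ and rps14 lie between -0.67 and -0.37, and none of these changes passed without the block. The measured genes on either side, psbM (0.16) and psaB (0.23, cotranscribed with rps14), lie above 0. In the dark 59 of 69 points lie below 0.

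Over all classes, 59 of 69 members lay below 0 in the dark against control, where 51.5% of all probe sets did. Without dark replicate 1 the count was 38 of 69 and the median -0.03, and without control replicate 3 it was 40. The median difference from the control means was -0.25 on dark replicate 1 and -0.01 on dark replicates 2 and 3. In high light against control 32 of 69 lay below 0, against 60.7% of all probe sets. With 1 array left out this count ran from 23 (without high light replicate 1) to 51 (without control replicate 1). In high light against dark, which shares its arrays with both other comparisons, 21 of 69 lay below 0, against 61.2% of all probe sets. Here the count ran from 16 (without dark replicate 2) to 29 (without dark replicate 1 or high light replicate 2). In the differences within replicate numbers, 13 members were lower in high light than control in all 3 numbers and 9 were higher in all 3, against 21.3% and 11.4% of all probe sets.

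The plastid signals ranged more widely between replicate numbers than between light levels. For 61 of 69 members the range of the 3 replicate-number means exceeded the range of the 3 group means, against 59.4% of all probe sets. The median range over the members was 0.63 between replicate numbers and 0.25 between groups. The 8 exceptions were rbcL, petN, petG, psbZ, ndhG, rps14, petB and rpl22. The median within-group SD was 0.37 for the members, 0.15 for all probe sets and 0.19 for the probe sets above the median mean. Over the 69 members the deviations of same-numbered arrays from their group means had correlations of 0.54 to 0.86 in the 9 pairs of arrays, against -0.03 to 0.63 over all probe sets. These correlations run across genes, which are no independent replicates, and the 3 deviations of a group sum to 0.

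**Figure D4:**
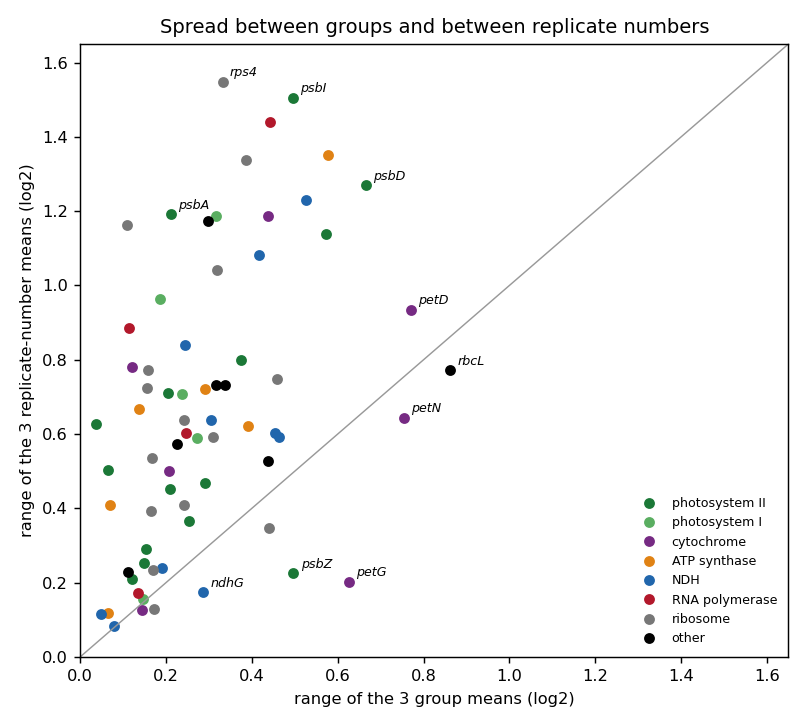
Range of the 3 group means (horizontal) against the range of the 3 replicate-number means (vertical), both in log2 units, for each of the 69 plastid genes, coloured by class, with equal ranges on the line. Of the 69 points 61 lie above the line, and rps4 and psbI have the widest ranges between replicate numbers (1.55 and 1.51).

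The direction of the replicate differences was not shared by all classes. Arrays numbered 1 gave the lowest mean for 38 of 69 members, against 36.1% of all probe sets, and arrays numbered 3 the highest for 37 of 69, against 37.9%. Arrays numbered 3 gave the highest mean for 12 of 15 ribosomal protein genes, 6 of 10 NDH genes and 6 of 15 photosystem II genes. The ribosomal protein gene rps4 had signals of 10.14, 10.93 and 11.80 in control, 9.76, 10.94 and 11.65 in the dark and 10.63, 11.01 and 11.72 in high light, so that number 3 exceeded number 1 by over 1 unit in every group. For psbA, psbD and ycf4 the arrays numbered 3 were the lowest of each group. The 3 prime minus 5 prime difference of the array's control transcripts follows RNA quality and was 0.72, 0.99 and 1.10 on control replicates 1 to 3, 0.79, 0.98 and 1.29 on the dark replicates and 0.99, 0.96 and 1.06 on the high light replicates. It thus also differed between replicate numbers within control and dark, and its part in the plastid values was not tested beyond a fit with it as a covariate, which called petG in high light against control (adjusted p = 0.0464) and no other member in any comparison, where 0.655% of all probe sets were called in high light against control.

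**Figure D5:**
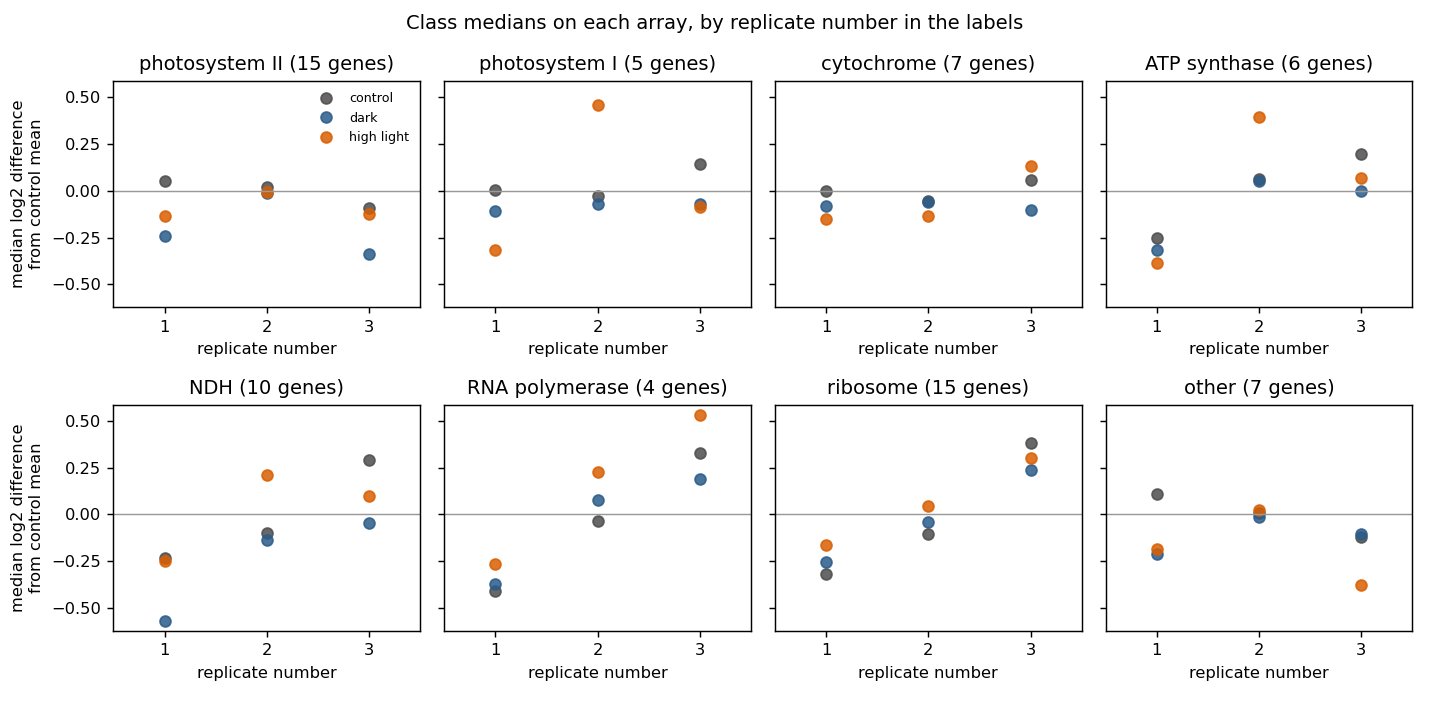
Median log2 difference from the control mean for each class of plastid genes on each array, set out by the replicate number in the labels and coloured by group (grey control, blue dark, orange high light). The arrays numbered 1 are the lowest and those numbered 3 the highest for the ribosome (-0.32 to -0.16 and 0.24 to 0.38) and the RNA polymerase (-0.41 to -0.26 and 0.19 to 0.53) in every group, while photosystem II spans -0.34 to 0.05 with no such order.

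The nucleus encodes the partners of these subunits, of which 7 of 45 listed genes had a named probe set. All 7 had a log2 change below 0 in high light against control, with a median of -0.42, where 60.7% of all probe sets lay below 0, and 0 passed. PSAN, a nuclear subunit of photosystem I, had signals of 8.49, 8.65 and 8.91 in control, 8.03, 8.03 and 8.40 in the dark and 7.97, 8.07 and 7.87 in high light. All control arrays lay above the dark and high light arrays, and its change was -0.71 (SE 0.14, adjusted p = 0.0835) in high light and -0.53 (SE 0.14, adjusted p = 1) in the dark. With the replicate number as a block PSAN was lower in high light (adjusted p = 0.042), the 1 of the 7 called in that fit. Of all probe sets 1.33% were called in that fit and 0.312% were called lower. ATPC1, the gamma subunit of the plastid ATP synthase, had -0.42 (SE 0.11) in high light, and PSBY, a small subunit of photosystem II, had -0.50 (SE 0.11). At an unadjusted p under 0.05, 4 of the 7 nuclear genes were lower in high light, where 4.92% of all probe sets were. Of 21 nuclear genes for plastid transcription 1 had a named probe set, RPOTMP, a phage-type polymerase of plastids and mitochondria. Its change was -0.02 (SE 0.08) in high light. The RPOTMP signal was low, with a control mean of 4.95 against a lowest array median of 5.55.

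The mitochondrial genome was set beside the plastid genome, because its transcripts are also made in an organelle. Its 11 measured genes had median log2 changes of 0.05 in high light and -0.11 in the dark against control, where the plastid genes had 0.01 and -0.13, and 0 of 11 passed. The median SD within groups was 0.34 for the mitochondrial genes. Arrays numbered 1 gave the highest mean for 9 of 11 mitochondrial genes and for 11 of 69 plastid genes, against 38.3% of all probe sets. The difference between the organelles was not tested.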

How the data were processed

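Total RNA of 9 cell suspension samples was hybridised to ATH1 arrays. The deposited values are log2 expression per probe set, computed by the authors; the submitters' processing notes name RMA and the affy package. RMA corrects background, normalises quantiles and summarises probes. The version, the settings and the base of the logarithm are not given in the sources used here; base 2 was taken from the range of the values. Quantile normalisation hides a shift of most transcripts. Probe-level scans were not used here, and the number of arrays limits the precision.

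Of 22810 probe sets, 64 array controls were set aside and 22746 tested. Plastid genes were found by gene identifier in the RefSeq gene table of assembly TAIR10.1; mitochondrial genes were matched by symbol, since their identifiers differ. Sequences were not used here. limma 3.58.1 in R 4.3.3 fitted a mean per group over all 9 arrays (6 residual and 2.55 prior degrees of freedom), with Benjamini-Hochberg adjustment over all probe sets and a threshold of 0.05. The fit was tested on simulated data.

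The members, lists and tests were chosen with earlier results of these data known. Named members were those with an unadjusted p under 0.05 in any comparison (with or without the block) and the extremes of each class. A preset list of core genes and some, not all, measured neighbours of named genes were added. Over all probe sets, deviations of same-numbered high light and control arrays had correlations of 0.515, 0.261 and 0.384, all above 0.1. The replicate number was therefore used as a block in a further fit over all 9 arrays. The labels do not say what same-numbered arrays share, so their pairing is inferred from these values.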

Additional observations from a re-analysis of the deposited data

How the results depend on the processing

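The count of plastid genes called was 0 in every comparison under median centring, repeated quantile normalisation, a filter above the median mean, array weights, robust estimation with an intensity trend, no probe sets with shared probes, only the 6 arrays of both groups, and each array left out (0 to 0). In high light against control it was 1 with the replicate number as a block (psbD), 1 with the RNA quality covariate (petG) and 5 with unadjusted p, and with unadjusted p it was 2 for dark against control and 1 for high light against dark. The replicate block gave 0 calls in both comparisons with dark. There the pair numbered 2 had a correlation of deviations over all probe sets of 0.0124 (dark and control) and -0.0336 (high light and dark), under 0.1. The pairs numbered 1 and 3 had 0.632 and 0.43 (dark and control) and 0.414 and 0.485 (high light and dark). Leaving out each array moved the median log2 change of the members between -0.10 and 0.15 in high light against control, between -0.20 and -0.03 in dark against control, and for high light against dark between 0.04 and 0.25. Of 2622 values of 49 named members under 18 alternatives, 2426 kept their sign and their side of the threshold. Another 194 changed sign without a call, and 2 became calls, psbD with the block and petG with the covariate. Many of these values could not change sign. The filter, robust estimation with a trend, the block, the removal of shared probes and the fit to 6 arrays leave the log2 change as it is. Leaving out an array of the group not compared does so too. There only the side of the threshold could change. The counts below 0 and class medians without 1 array, the blocked intervals and the block without 1 number were chosen after seeing the data. The mean over several probe sets of a gene was not run, since each member has 1. The cause of these differences was not tested. Low signals limit atpI, ndhF and rpoB.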

Other observations

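The ndhB probe set lies outside the 69 members, because it lists 2 entries of that symbol and cannot tell them apart. Its signals were 8.32, 7.55 and 7.06 in control, 7.93, 7.14 and 7.17 in the dark and 6.85, 5.03 and 5.39 in high light. All 3 high light arrays lay below all control and dark arrays. The log2 change was -1.89 (SE 0.49) against control, more than that of any of the 69 members, and -1.66 (SE 0.49) against dark. The limma adjusted p was 0.225 and 0.31, and it was 0.00753 against control with a block for the replicate number. It was chosen after its values were seen. The other 7 such probe sets had log2 changes from -0.09 to 0.31 in high light against control.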
